A study of Mus musculus with 9 samples.

Results

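Transcription factors of brain vessels were followed in mRNA bound to tagged ribosomes of astrocytes. The 10 genes were Erg, Sox17, Sox18, Foxf2, Foxq1, Foxc1, Tbx2, Tbx3, Tbx18 and Lef1, out of 22092 genes with counts, and all 10 had counts. They were selected on their counts in endfeet TRAP against whole astrocyte TRAP and listed by symbol. The difference between these groups is therefore given for them as a description, and nothing is read from its test.

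All libraries came from mice of strain Aldh1L1 JD130 aged 2 months, which carry tg:Aldh1L1-L10aGFP, a GFP-tagged ribosomal protein L10a driven by regulatory sequence of the astrocyte gene Aldh1l1. In translating ribosome affinity purification (TRAP), tagged ribosomes are precipitated with GFP antibodies and the mRNA attached to them is sequenced. The 3 whole astrocyte TRAP libraries were each made from 1 brain, from which the choroid plexus had been removed, and the 6 endfeet TRAP libraries were each made from purified brain vessels pooled from several mice, to which astrocyte endfeet remain attached. The labels name no treatment, and there was no library from mice without the transgene and no unpurified vessel RNA among those analysed here.

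Astrocyte endfeet wrap the vessels of the brain, whose wall is made of endothelial cells and, outside them, of mural cells (pericytes and smooth muscle cells). Erg and the SoxF factors Sox17 and Sox18 are nuclear regulators of endothelial identity and junctions. Foxf2, Foxq1, Foxc1 and Tbx18 are known from brain endothelium or from mural cells, and Lef1 is the nuclear partner through which beta-catenin, the effector of canonical Wnt signalling, acts on its target genes in the endothelium of the blood-brain barrier.

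Depth was 35984144 to 43521208 gene counts per whole astrocyte library, and 2319495 (endfeet library 6) to 13450588 per endfeet library. A floor of 3 counts therefore stood for 0.0689 to 0.0834 CPM (counts scaled to the gene total of the library) and for 0.223 to 1.29 CPM. Such floors, and the intervals given below, cover counting error only, since the reads were amplified. Nothing in the labels says how the vessel pools were separated, so the spread between libraries may be partly technical. The summed CPM of astrocyte markers (11 genes, among them Aqp4 and Gfap) was 13310 to 15640 in whole astrocyte TRAP and 11230 to 30710 in endfeet TRAP. Of these 11, 5 were lower in endfeet TRAP without overlap and 1 was higher, and Hes5 was at 0 in 1 endfeet library. The share of all genes that was lower without overlap is not given here, so nothing is read from the 5. Markers of vessel cells were far apart between the groups. Beside the counts without overlap that follow, every endfeet library was above every whole astrocyte library for 17.7% of the 14427 genes tested. The 13 endothelial markers summed to 8.004 to 9.91 CPM against 2843 to 6267 CPM, with all 13 not overlapping and Ly6c1 at 0 in each whole astrocyte library. The 10 pericyte markers summed to 36.4 to 45.3 CPM against 2385 to 7867 CPM (10 of 10 not overlapping), and the 9 smooth muscle markers to 32.9 to 33.5 CPM against 1367 to 2597 CPM (8 of 9). Fibroblast and meningeal markers summed to 57.7 to 93.5 CPM against 1314 to 2179 CPM (9 of 10 not overlapping), and markers of choroid plexus and ependyma to 86.5 to 1619 CPM against 6852 to 73490 CPM (7 of 10), the highest in endfeet library 1. Microglial and macrophage markers summed to 20.1 to 24.7 CPM against 175 to 405 CPM (6 of 10), with Aif1 at 0 in 3 endfeet libraries. The part of these cell types in the levels of the transcription factors was not tested. In such bulk samples, fewer cells of a type and less RNA per cell cannot be told apart.

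The start regions of 5 of the 10 genes were in the RefSeq promoter table (build GRCm38.p6), and 4 are shown because they belong to the families treated below and can be read beside each other: the endothelial Erg, the forkhead gene Foxf2, the mural Tbx18 and Lef1. Each run holds the 237 bases that end 14 bases before the RefSeq start site, on the strand of the gene. Capitals mark matches on either strand to 5 short cores: AGGAA of ETS factors such as Erg, ACAAT of SOX factors, TAAACA of forkhead factors, TCACACC of T-box factors and CTTTG of TCF/LEF factors.
Erg (chr16:95459362-95459598, minus strand): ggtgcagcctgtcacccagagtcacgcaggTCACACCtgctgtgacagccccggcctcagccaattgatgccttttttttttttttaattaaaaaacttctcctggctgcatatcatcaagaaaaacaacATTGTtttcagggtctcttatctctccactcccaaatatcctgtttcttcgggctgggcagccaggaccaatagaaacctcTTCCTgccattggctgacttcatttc
Foxf2 (chr13:31625566-31625802, plus strand): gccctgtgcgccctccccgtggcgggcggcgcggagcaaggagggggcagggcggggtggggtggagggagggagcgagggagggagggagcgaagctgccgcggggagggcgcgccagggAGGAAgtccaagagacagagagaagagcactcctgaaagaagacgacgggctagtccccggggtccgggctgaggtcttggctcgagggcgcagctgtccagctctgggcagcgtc
Tbx18 (chr9:87731274-87731510, minus strand): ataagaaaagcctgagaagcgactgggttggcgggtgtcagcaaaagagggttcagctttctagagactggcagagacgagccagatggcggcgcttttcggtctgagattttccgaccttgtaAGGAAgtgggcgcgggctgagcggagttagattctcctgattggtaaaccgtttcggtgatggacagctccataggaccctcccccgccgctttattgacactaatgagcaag
Lef1 (chr3:131110047-131110283, plus strand): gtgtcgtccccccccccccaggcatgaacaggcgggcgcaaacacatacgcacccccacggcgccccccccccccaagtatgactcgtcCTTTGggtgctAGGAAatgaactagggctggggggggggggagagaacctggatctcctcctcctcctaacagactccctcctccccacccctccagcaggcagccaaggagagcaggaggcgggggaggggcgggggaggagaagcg
The Erg region held 1 ETS, 1 SOX and 1 T-box core, Foxf2 and Tbx18 held 1 ETS core each, and Lef1 held 1 ETS and 1 TCF/LEF core. The region of Foxc1, the fifth gene in the table, held none, and no matches shared bases. Over all 32851 promoters of the table, cut to the same 237 bases, the ETS core was present in 58.4%, the SOX core in 26.9%, the forkhead core in 11.7%, the T-box core in 3.16% and the TCF/LEF core in 46.9%. These letters are a description of sequence and not binding sites. The RefSeq start site of Lef1 lies 174 bases upstream of the annotated start of the counted transcript. The regions of Foxf2, Tbx18 and Lef1 overlap exons of noncoding transcripts (1700018A04Rik, D030062O11Rik and Gm43352).

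All 10 transcription factors were higher in each of the 6 endfeet TRAP libraries than in each of the 3 whole astrocyte TRAP libraries. Among all 14427 genes tested, 17.7% had every endfeet library above every whole astrocyte library. In edgeR's quasi-likelihood fit all 10 were on the higher side of an adjusted p of 0.05, as were 20.7% of the genes tested. The genes were listed on this contrast. Those near 0 in whole astrocyte TRAP, such as Erg and Tbx2, passed the filter on low counts only through endfeet TRAP. Nothing is therefore read from either count or from the medians that follow. The median of their log2 ratios was 6.83, with 0.10 for all genes tested, and 6.41 against -0.16 when only endfeet libraries 4 to 6, whose files carry numbers of the same run as those of the whole astrocyte libraries, were compared with whole astrocyte TRAP.

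**Figure D1:**
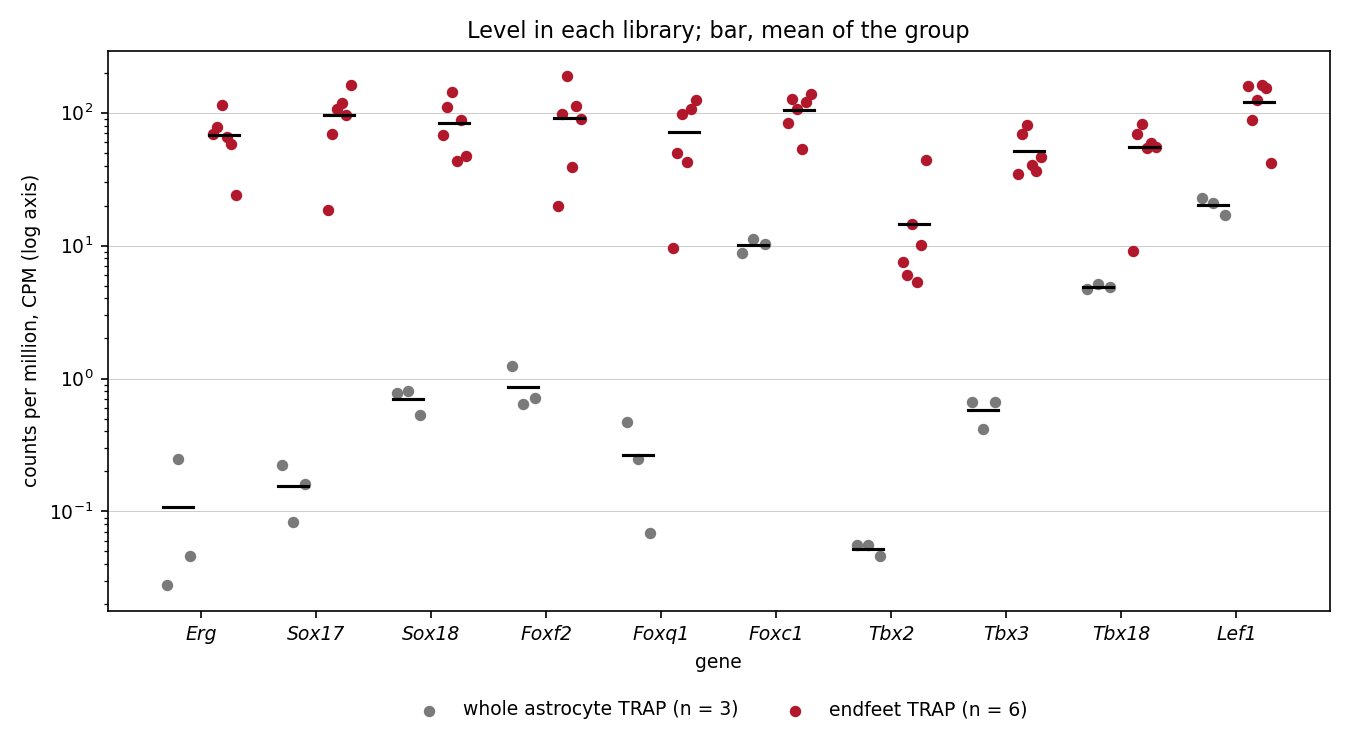
Level of each of the 10 transcription factors in CPM on a log axis, with 1 point per library (grey, 3 whole astrocyte TRAP libraries; red, 6 endfeet TRAP libraries) and a bar at the mean of each group. No red point lies at or below a grey point of the same gene, and the gap is narrowest for Tbx18, where the lowest endfeet library had 9.06 CPM and the highest whole astrocyte library 5.13 CPM.

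Erg, the ETS factor that maintains endothelial junctions and represses inflammatory genes, is on chromosome 16 (95359169 to 95586593 in mm10, ENSMUSG00000040732, minus strand). It had 69.1, 78.4, 115, 65.1, 57.8 and 24.1 CPM in endfeet TRAP libraries 1 to 6. In whole astrocyte TRAP libraries 1 to 3 it had 1, 9 and 2 counts, or 0.0278, 0.250 and 0.0459 CPM, and 2 of these libraries were under the floor of 3 counts. Endfeet library 3 was highest and library 6 lowest, and even library 6 was 96.7 times the highest whole astrocyte library. The group means were 68.3 ± 29.6 CPM (SD, n = 6) and 0.108 ± 0.123 CPM (SD, n = 3), with a fitted log2 ratio (the log2 fold change, endfeet TRAP over whole astrocyte TRAP) of 9.32 (SE 0.886). Pooled over libraries, the ratio of Erg CPM was 731 (95% exact interval 418 to 1420). Without whole astrocyte library 2, which held 9 of the 12 counts, the log2 ratio was 10.63.

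The SoxF gene Sox17, a factor of arterial endothelium, is on chromosome 1 (4490931 to 4497354, ENSMUSG00000025902, minus strand). It had 18.6, 69.5, 107, 119, 96.2 and 162 CPM in endfeet libraries 1 to 6, and 0.222, 0.0832 and 0.161 CPM in whole astrocyte libraries 1 to 3, from 8, 3 and 7 counts. Endfeet library 1 stood below the others and library 6 was highest, at 8.75 times library 1. The log2 ratio of Sox17 was 9.26 (SE 0.834), between means of 95.4 ± 48.5 CPM (SD, n = 6) and 0.156 ± 0.0697 CPM (SD, n = 3).

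Sox18, its close relative in blood and lymphatic endothelium, is on chromosome 2 (181669836 to 181671640, ENSMUSG00000046470, minus strand). Its endfeet libraries 1 to 6 had 68.3, 110, 142, 43.4, 87.9 and 47.4 CPM, and whole astrocyte libraries 1 to 3 had 0.778, 0.805 and 0.528 CPM. Library 3 was highest and library 4 lowest, so the order of libraries was not that of Sox17. The log2 ratio of Sox18 was 6.93 (SE 0.585), from 83.2 ± 38.3 CPM (SD, n = 6) and 0.704 ± 0.152 CPM (SD, n = 3), and it was 6.34 with endfeet libraries 4 to 6 only.

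The forkhead genes of the list lie side by side on chromosome 13. Foxq1, a factor of brain endothelium, is at 31556134 to 31560976 (ENSMUSG00000038415), Foxf2, needed for pericytes and the barrier, at 31625816 to 31631403 (ENSMUSG00000038402), and Foxc1, a factor of vessel, mural and meningeal development, at 31806633 to 31812476 (ENSMUSG00000050295), all on the plus strand. They span 256343 bases, with 64840 bases between Foxq1 and Foxf2 and 175230 between Foxf2 and Foxc1.

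Foxf2 had 19.8, 98.2, 188, 38.7, 112 and 89.7 CPM in endfeet libraries 1 to 6, and 1.25, 0.638 and 0.712 CPM in whole astrocyte libraries 1 to 3. Endfeet libraries 1 and 4 were low and library 3 was 9.50 times library 1. Its log2 ratio was 6.72 (SE 0.766), between 91.1 ± 59.6 CPM (SD, n = 6) and 0.867 ± 0.334 CPM (SD, n = 3).

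Foxq1 had 9.52, 49.6, 97.2, 42.4, 108 and 125 CPM in endfeet libraries 1 to 6, and 0.472, 0.250 and 0.0689 CPM in whole astrocyte libraries 1 to 3, from 17, 9 and 3 counts. It had the widest range among the 10 genes in endfeet TRAP, 13.1 times from library 1 to library 6. The log2 ratio of Foxq1 was 8.11 (SE 1.02), from 71.8 ± 44.6 CPM (SD, n = 6) and 0.264 ± 0.202 CPM (SD, n = 3), and it was 8.87 without whole astrocyte library 1. The single exon of Foxq1 is overlapped over 3200 bases by A530084C06Rik on the opposite strand. That gene had 0, 12, 163, 35, 21 and 0 counts in endfeet libraries 1 to 6, against 62, 429, 1293, 538, 1446 and 289 for Foxq1. The strand setting of the counting is not given in the sources used here, so reads of this overlap cannot be assigned to a strand.

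Foxc1 was higher in whole astrocyte TRAP than its neighbours, with 8.78, 11.2 and 10.3 CPM from 316, 403 and 450 counts in libraries 1 to 3, against 45, 23 and 31 counts of Foxf2. Endfeet libraries 1 to 6 had 83.5, 127, 108, 53.2, 121 and 139 CPM. Library 4 was lowest, at 4.76 times the highest whole astrocyte library, and the highest and lowest endfeet libraries were only 2.62 times apart. The log2 ratio of Foxc1 was 3.47 (SE 0.412), between 105 ± 31.9 CPM (SD, n = 6) and 10.1 ± 1.22 CPM (SD, n = 3).

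Tbx2, a repressor of the T-box family, is on chromosome 11 (85832551 to 85841948, ENSMUSG00000000093, plus strand). It had 2 counts in each whole astrocyte library (0.0459 to 0.0556 CPM), under the floor of 3 counts. Endfeet libraries 1 to 6 had 7.53, 6.01, 14.4, 5.29, 10.2 and 44.4 CPM. Library 6, the library with the fewest counts, was far above the others, from 103 counts. Pooled over libraries, the ratio of Tbx2 CPM was 203 (95% exact interval 92.7 to 555). Its mean in endfeet TRAP was 14.6 ± 15.0 CPM (SD, n = 6), and the fitted log2 ratio was 8.04 (SE 1.24), or 7.28 without endfeet library 6.

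Tbx3, the closest relative of Tbx2, is on chromosome 5 (119670669 to 119684724, ENSMUSG00000018604, plus strand). Its endfeet libraries 1 to 6 had 34.4, 69.6, 80.7, 40.1, 36.6 and 46.1 CPM, the narrowest range among the 10 genes (2.35 times). Whole astrocyte libraries 1 to 3 had 0.667, 0.416 and 0.666 CPM. The log2 ratio of Tbx3 was 6.50 (SE 0.585), between 51.3 ± 19.3 CPM (SD, n = 6) and 0.583 ± 0.145 CPM (SD, n = 3).

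Tbx18, a T-box factor of pericytes and vascular smooth muscle, is on chromosome 9 (87702800 to 87731260, ENSMUSG00000032419, minus strand). It had 9.06, 69.2, 81.9, 54.0, 59.2 and 55.2 CPM in endfeet libraries 1 to 6, and 4.72, 5.13 and 4.87 CPM in whole astrocyte libraries 1 to 3. Endfeet library 1 was close to whole astrocyte TRAP, at 1.77 times its highest library, while the other endfeet libraries lay together. The log2 ratio of Tbx18 was 3.52 (SE 0.609), from 54.8 ± 24.7 CPM (SD, n = 6) and 4.91 ± 0.207 CPM (SD, n = 3).

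Lef1 is on chromosome 3 (131110471 to 131224356, ENSMUSG00000027985, plus strand) and had the highest level of the 10 in whole astrocyte TRAP, with 22.7, 20.8 and 17.1 CPM from 817, 749 and 743 counts. Endfeet libraries 1 to 6 had 158, 87.8, 124, 161, 154 and 41.8 CPM. Library 6 was lowest, and the others stood between 87.8 and 161 CPM. Lef1 had the smallest log2 ratio of the 10, 2.69 (SE 0.469), between 121 ± 47.7 CPM (SD, n = 6) and 20.2 ± 2.86 CPM (SD, n = 3).

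Compared per length, as counts divided by exon length and library size (RPKM), the endfeet TRAP means ran from Sox18 (51.4 ± 23.6 RPKM, SD, n = 6) over Foxf2 (38.6 ± 25.2 RPKM), Lef1 (34.7 ± 13.7 RPKM), Erg (34.0 ± 14.7 RPKM) and Sox17 (30.5 ± 15.5 RPKM) to Foxc1 (18.0 ± 5.45 RPKM), Foxq1 (14.8 ± 9.21 RPKM), Tbx18 (11.7 ± 5.28 RPKM), Tbx3 (10.6 ± 3.97 RPKM) and Tbx2 (4.04 ± 4.12 RPKM). Neighbours in this order did not differ beyond their spread, taken as the SD of their log2 differences over the 6 libraries, except for Tbx3 over Tbx2 (mean log2 difference 1.75, SD 1.19). Among genes with counts, the mean RPKM of Sox18 in endfeet TRAP was at percentile 94.2 and that of Tbx2 at percentile 42.2. With counts summed over transcripts and the union of exons as length, the order of Sox18 and Erg turned, at 24.5 and 62.0 RPKM, and Foxc1 was at 8.63 and Tbx18 at 5.60 RPKM. This alternative counts a read once for each transcript it overlaps, also in the library total. Erg has 5 counted transcripts, whereas Sox18, Foxc1 and Tbx18 have 1 each and an unchanged length. The turn follows from this construction and is no second estimate of the levels. In whole astrocyte TRAP the order was led by Lef1 (5.80 ± 0.822 RPKM, SD, n = 3), Foxc1 (1.73 ± 0.208 RPKM) and Tbx18 (1.05 ± 0.0443 RPKM), and the other 7 genes were below 1 RPKM.

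Within endfeet TRAP, the transcription factors did not share one order of libraries. Library 1 was the lowest in CPM for Sox17, Foxf2, Foxq1, Tbx3 and Tbx18. These levels leave out the TMM normalization factors of the fits, which ran from 0.820 in library 1 to 1.145 in library 3. Small gaps, such as that of Tbx3 between libraries 1 and 5 (34.4 and 36.6 CPM), can turn with them. Relative to its own median over the 6 libraries, Foxq1 stood at 0.130 in library 1, Tbx18 at 0.158, Sox17 at 0.183 and Foxf2 at 0.211. The other 6 genes stood at 0.732 to 1.14 there, Lef1 and Erg highest. In the same library the summed endothelial markers stood at 0.617 of their median, the pericyte markers at 0.387, the smooth muscle markers at 0.894 and the markers of choroid plexus and ependyma at 3.10. In library 6, Erg stood at 0.360 and Lef1 at 0.301 of their medians, while Tbx2 stood at 5.01, Foxq1 at 1.70 and Sox17 at 1.60. The endothelial markers stood at 0.867 there, the pericyte markers at 0.926 and the smooth muscle markers at 0.757. Library 3 was highest for Erg, Sox18, Foxf2, Tbx3 and Tbx18, and held the highest endothelial marker sum (1.36 of the median). In library 3 the smooth muscle markers stood at 1.34 and the pericyte markers at 1.07. The part of these marker levels in the transcription factors was not tested.

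**Figure D2:**
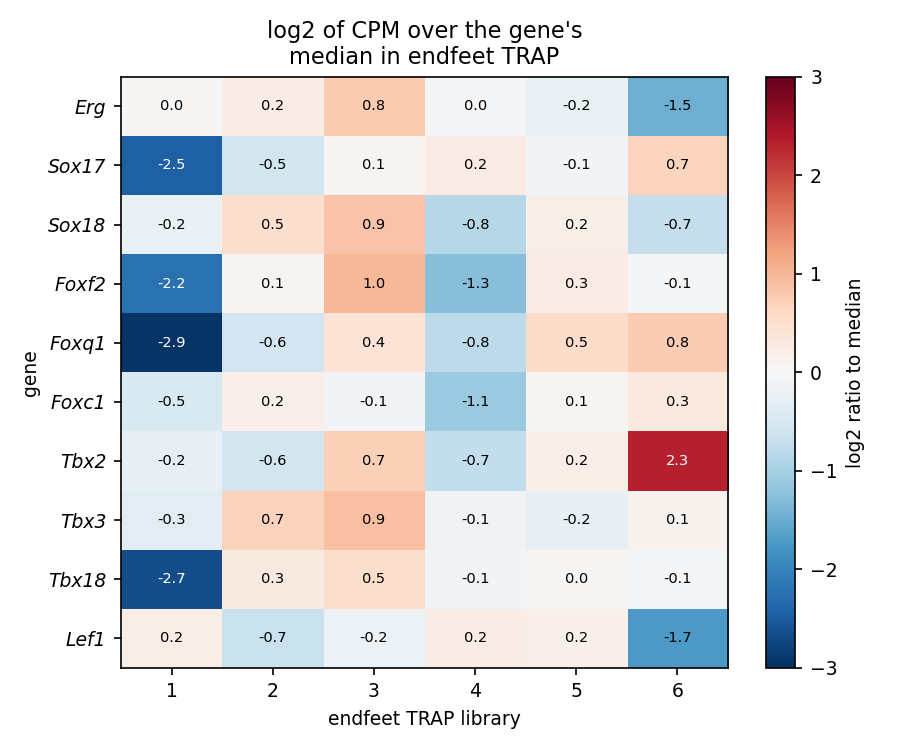
Each gene (rows) in each endfeet TRAP library (columns 1 to 6), as the log2 of its CPM over its own median in endfeet TRAP, red above and blue below the median. Library 1 is dark blue for Sox17, Foxf2, Foxq1 and Tbx18 and close to the median for Erg and Lef1, while library 6 is red for Tbx2 and blue for Erg and Lef1.

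The median coefficient of variation over the 6 endfeet libraries was 45.5% for the 10 genes and 61.8% for the 14094 genes with a mean of at least 1 CPM in endfeet TRAP. The 10 genes had means of 14.6 to 121 CPM, and counting error is larger at low counts. The sets were not matched for level, so nothing is read from this gap. The coefficient of the 10 genes ran from 30.3% for Foxc1 and 37.6% for Tbx3 to 65.4% for Foxf2 and 102% for Tbx2. Division by the summed endothelial markers lowered it for 5 of the 10 genes, most for Tbx3 (to 23.3%) and for Foxf2 (to 48.8%), and raised it for Lef1 (from 39.4% to 55.6%). Division by the smooth muscle markers lowered it for 5 genes, Sox18 from 46.0% to 22.8% among them, and raised it for the other 5, Sox17 from 50.8% to 71.0% among them. Division by the pericyte markers lowered it for 5, Tbx18 from 45.1% to 34.6% among them, and raised it for the other 5, Erg from 43.3% to 64.9% and Lef1 to 82.4% among them. The median over the 10 genes was 44.3% per endothelial, 47.2% per smooth muscle and 53.9% per pericyte marker sum.

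Over the same 6 libraries, the highest correlations between the 10 genes (Pearson, log2(CPM + 1), a description) were those of Foxq1 with Sox17 (0.91), of Tbx18 with Sox17 and with Foxq1 (0.88 each), and of Foxf2 with Foxq1 (0.87) and with Tbx18 (0.86). These points share library 1, in which those 4 genes were low. Foxc1 had correlations of 0.64 with Foxf2 and 0.53 with Foxq1. The lowest were those of Lef1 with Tbx2 (-0.79), of Erg with Tbx2 (-0.68) and of Lef1 with Foxc1 (-0.64). Sox17 and Sox18 had a correlation of -0.14.

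Endfeet libraries 1 to 3 and 4 to 6 carry separate runs of file numbers, whose meaning is not stated, and their comparison did not enter the choice of the genes. edgeR's quasi-likelihood test called 0 of 13483 genes between them at an adjusted p of 0.05 (0.0% of the genes tested), with 622 genes at an unadjusted p under 0.05. DESeq2 called 19 genes and limma voom 1, and none of these was among the 10 transcription factors. Sox17 was at 126 CPM in libraries 4 to 6 and 64.9 CPM in libraries 1 to 3, a log2 difference of 1.07 (SE 0.549, edgeR adjusted p = 0.964). Erg and Sox18 lay on the other side, at 49.0 against 87.6 CPM (log2 difference -0.81, SE 0.521) and at 59.6 against 107 CPM (-0.80, SE 0.479). Foxc1 was at 104 against 106 CPM and Lef1 at 119 against 123 CPM, with log2 differences of 0.00 (SE 0.473) and -0.10 (SE 0.531). None passed the threshold, with SEs of 0.473 to 1.03 over the 10 genes.

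**Figure D3:**
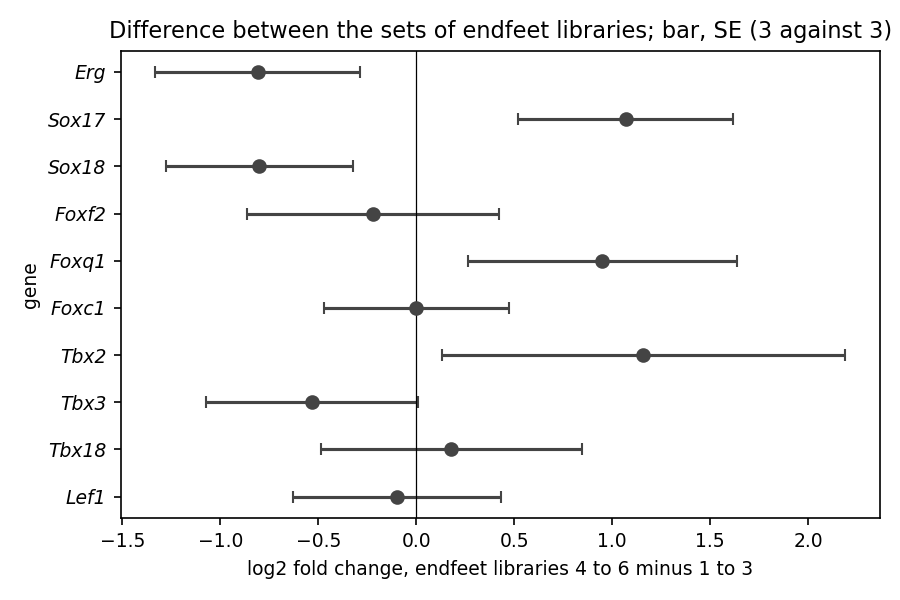
Fitted log2 ratio of each gene between endfeet TRAP libraries 4 to 6 and libraries 1 to 3 (horizontal axis, positive where libraries 4 to 6 were higher), with bars of 1 SE. Sox17, Foxq1 and Tbx2 lie to the right and Erg and Sox18 to the left, while no difference passed the threshold.

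Related genes outside the 10 were tested between the groups in lists by family and role. Beside each count stand the 20.7% of all genes tested that were higher in endfeet TRAP, the 13.9% that were lower and the median of 0.10. Genes near 0 in whole astrocyte TRAP passed the filter on low counts only through endfeet TRAP, so nothing is read from the count or median of a list. The same holds for the adjusted p of such a gene, as with Foxs1, Gata2, Myocd and Notum below. Among the other ETS genes, 8 of 19 tested were higher and 2 lower in endfeet TRAP (edgeR, adjusted p of at most 0.05), with a median log2 ratio of 1.13. Fli1, which acts beside Erg in endothelial cells, had 110 ± 29.2 CPM in endfeet TRAP (SD, n = 6) and 0.978 ± 0.118 CPM in whole astrocyte TRAP (SD, n = 3), a log2 ratio of 6.89 (SE 0.460, edgeR adjusted p = 3.5e-07). Ets1, another endothelial ETS factor, rose by 6.79 (SE 0.369) to 260 ± 48.0 CPM, and Elk4 by 4.99 (SE 0.508). On the other side, the FGF-responsive factors Etv4 (11.2 ± 0.462 against 0.118 ± 0.253 CPM) and Etv5 (93.4 ± 5.38 against 9.49 ± 6.36 CPM) were lower in endfeet TRAP. The number of higher ETS genes was 5 without any 1 of the whole astrocyte libraries 1, 2 and 3.

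Of 14 other SOX genes tested, 1 was higher, 7 were lower and 6 did not pass, with a median log2 ratio of -1.99. The lower ones included the neural factors Sox2 (242 ± 20.7 CPM in whole astrocyte TRAP, SD, n = 3, against 17.9 ± 13.8 CPM in endfeet TRAP, SD, n = 6), Sox8 (208 ± 11.9 against 6.63 ± 5.34 CPM) and Sox21 (184 ± 11.1 against 15.2 ± 8.60 CPM). Sox7, the remaining SoxF gene, was not called (log2 ratio 0.95, SE 0.873, edgeR adjusted p = 0.42). Its level in whole astrocyte TRAP was 20.5 ± 2.76 CPM, or 6.21 RPKM, against 0.0497 RPKM for Sox17 and 0.434 RPKM for Sox18. In endfeet TRAP it ran from 0.307 CPM to 64.2 CPM, and without endfeet library 1 its log2 ratio was 1.19 (edgeR adjusted p = 0.031). Sox13 was the 1 higher gene (log2 ratio 1.91, SE 0.602, edgeR adjusted p = 0.026), but it did not pass without whole astrocyte library 1, 2 or 3 (log2 ratios 1.86 to 1.94, edgeR adjusted p = 0.086 to 0.096). With endfeet libraries 4 to 6 only, the log2 ratio of Sox13 was 0.51 (edgeR adjusted p = 0.28), and with the run of file numbers as a covariate 0.65 (0.2). Without endfeet library 1, 2 of these SOX genes were higher.

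Of 24 other forkhead genes tested, 9 were higher and 3 lower, with a median log2 ratio of 0.86. The higher ones were led by genes that were near or under the floor in whole astrocyte TRAP. Foxf1, the relative of Foxf2, had 4 counts over the 3 whole astrocyte libraries and 14.7 ± 13.1 CPM in endfeet TRAP (pooled ratio 553, 95% exact interval 215 to 2030). Foxl2 had 11 counts against 20.4 ± 12.3 CPM (pooled ratio 220, interval 123 to 442), and Foxs1, known from pericytes, had 0.109 ± 0.0713 against 9.95 ± 5.24 CPM (log2 ratio 6.52, SE 1.15, edgeR adjusted p = 7.4e-04). Among the lower ones were Foxo1 (551 ± 65.3 CPM in whole astrocyte TRAP against 274 ± 77.2 CPM in endfeet TRAP) and Foxr2 (1.18 ± 0.0882 against 0.0657 ± 0.161 CPM). Without whole astrocyte library 1 or 2 only 1 forkhead gene was lower, and Foxr2 did not pass without whole astrocyte library 3 or endfeet library 2, 3, 5 or 6 either. Foxo1 did not pass without whole astrocyte library 1 or 2 (edgeR adjusted p = 0.12 and 0.051).

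Of 13 other T-box genes, 7 were not tested for low counts, and of the 6 tested 5 were higher and none lower, with a median log2 ratio of 5.17. Tbx1, Tbx4 and Tbx20 passed the filter only through endfeet TRAP, and without the filter 4 of 12 genes tested were higher. Tbx1 (2 counts in whole astrocyte TRAP), Tbx4 (1 count) and Tbx20 (8 counts) had pooled ratios of 218 (95% exact interval 59.7 to 1810), 954 (170 to 37800) and 191 (96.6 to 445). Tbx4 ran from 0 to 28.8 CPM over the endfeet libraries and overlapped whole astrocyte TRAP. Tbx15, a factor of mesenchymal cells, had 20.8 ± 20.5 against 3.24 ± 0.320 CPM (log2 ratio 2.74, SE 0.988, edgeR adjusted p = 0.047), and 4 of its 6 endfeet values exceeded all whole astrocyte values. Mga, a large repressor with a T-box domain, had 255 ± 69.8 against 78.6 ± 3.64 CPM. Tbx5 was among the genes not tested. Tbx15 did not pass without whole astrocyte library 1, 2 or 3 (edgeR adjusted p = 0.14 to 0.15) or without endfeet library 2, 3, 4 or 5 (0.059 to 0.1). Without endfeet library 2, 3 or 4, 3 T-box genes were higher, and the same number with endfeet libraries 4 to 6 only.

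Lef1 belongs to the TCF family, whose 3 other genes went different ways. Tcf7, also active in endothelium, had 80.0 ± 46.6 CPM in endfeet TRAP (SD, n = 6) and 6.07 ± 1.35 CPM in whole astrocyte TRAP (SD, n = 3), a log2 ratio of 3.74 (SE 0.727, edgeR adjusted p = 0.0015), and 5 of its 6 endfeet values exceeded all whole astrocyte values. Tcf7l2 was lower, with 41.3 ± 16.2 against 177 ± 12.1 CPM (log2 ratio -2.05, SE 0.327, edgeR adjusted p = 3.7e-04). Tcf7l1 had 14.4 ± 6.67 against 32.3 ± 1.49 CPM and was not called (log2 ratio -1.08, SE 0.570, edgeR adjusted p = 0.16), but passed in limma voom (-1.35, adjusted p = 0.018). Per length, Lef1 was at 5.80 RPKM and Tcf7l2 at 82.7 RPKM in whole astrocyte TRAP.

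Among the beta-catenin partners of Lef1, 1 of 9 tested was higher and 2 were lower, with a median log2 ratio of -0.34. Ctnnb1, which encodes beta-catenin, had 1480 ± 164 CPM in endfeet TRAP (SD, n = 6) and 614 ± 46.6 CPM in whole astrocyte TRAP (SD, n = 3), a log2 ratio of 1.36 (SE 0.231, edgeR adjusted p = 5.7e-04). Pygo1, a co-activator, had 36.8 ± 21.3 against 88.1 ± 2.24 CPM and the co-repressor Tle4 had 62.8 ± 26.8 against 158 ± 10.3 CPM. Both passed the threshold as lower (edgeR adjusted p = 0.041 and 0.016), and neither did without whole astrocyte library 1, 2 or 3. Without endfeet library 3, only 1 partner was lower.

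Of 8 Wnt/beta-catenin target genes tested, 6 were higher and none lower, with a median log2 ratio of 2.10. Apcdd1, an inhibitor of Wnt signalling that is found in brain endothelium, had 142 ± 24.3 CPM in endfeet TRAP (SD, n = 6) and 1.71 ± 0.806 CPM in whole astrocyte TRAP (SD, n = 3), a log2 ratio of 6.47 (SE 0.478, edgeR adjusted p = 7.1e-07). Nkd2 and Notum, also inhibitors of the pathway, had log2 ratios of 4.30 (SE 0.766) and 4.25 (SE 1.31, edgeR adjusted p = 0.023), the latter at only 4.20 ± 3.27 CPM and not past the threshold without whole astrocyte library 1, 2 or 3. Axin2, the most general target of the pathway, had 31.2 ± 14.0 against 29.2 ± 1.55 CPM and did not pass (log2 ratio 0.19, SE 0.545, edgeR adjusted p = 0.81). Sp5 was not tested for low counts.

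All 11 endothelial target genes of Erg and SoxF were higher in endfeet TRAP (edgeR, adjusted p of at most 0.05), with a median log2 ratio of 8.0. Of all genes tested, 20.7% were higher. Targets near 0 in whole astrocyte TRAP, such as Vwf and Icam2, passed the filter on low counts only through endfeet TRAP. Nothing is read from this count, this median or the adjusted p of such genes. Vwf, the von Willebrand factor, had 405 ± 111 CPM in endfeet TRAP (SD, n = 6) and 0.175 ± 0.131 CPM in whole astrocyte TRAP (SD, n = 3), a log2 ratio of 11.17 (SE 0.641). Tek, the receptor of angiopoietins, had 351 ± 121 against 0.412 ± 0.582 CPM (log2 ratio 9.79, SE 0.935), and Cldn5, the claudin of endothelial tight junctions, 277 ± 194 against 0.435 ± 0.340 CPM (9.32, SE 0.873). Cldn5, Tek and Cdh5 are also among the endothelial markers above.

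Of 27 other endothelial transcription factors tested, 18 were higher and 3 lower, with a median log2 ratio of 3.15. Besides Fli1 and Foxl2, the higher ones were led by Gata2, with 96.2 ± 31.1 CPM in endfeet TRAP (SD, n = 6) and 0.595 ± 0.262 CPM in whole astrocyte TRAP (SD, n = 3, log2 ratio 7.40, SE 0.552, edgeR adjusted p = 7.8e-07), and Bcl6b, with 28.4 ± 14.8 against 0.203 ± 0.0689 CPM (7.11, SE 0.835). The lower ones were Hey1 (180 ± 94.5 against 624 ± 12.9 CPM), Id3 (113 ± 47.8 against 325 ± 29.9 CPM) and Foxo1, which whole astrocyte TRAP held at high levels. With the run of file numbers as a covariate, Hey1 and Foxo1 did not pass (edgeR adjusted p = 0.053 and 0.078). Of 18 other mural transcription factors tested, 6 were higher and 2 lower, with a median log2 ratio of 1.32. Myocd, the co-activator of smooth muscle genes, had 22.9 ± 11.3 against 0.154 ± 0.0872 CPM (log2 ratio 7.22, SE 0.918, edgeR adjusted p = 6.1e-05), beside Foxs1 and Foxf1. Meis2 was lower, with 31.6 ± 26.3 against 155 ± 8.83 CPM (edgeR adjusted p = 0.015), and it did not pass without whole astrocyte library 1.

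**Figure D4:**
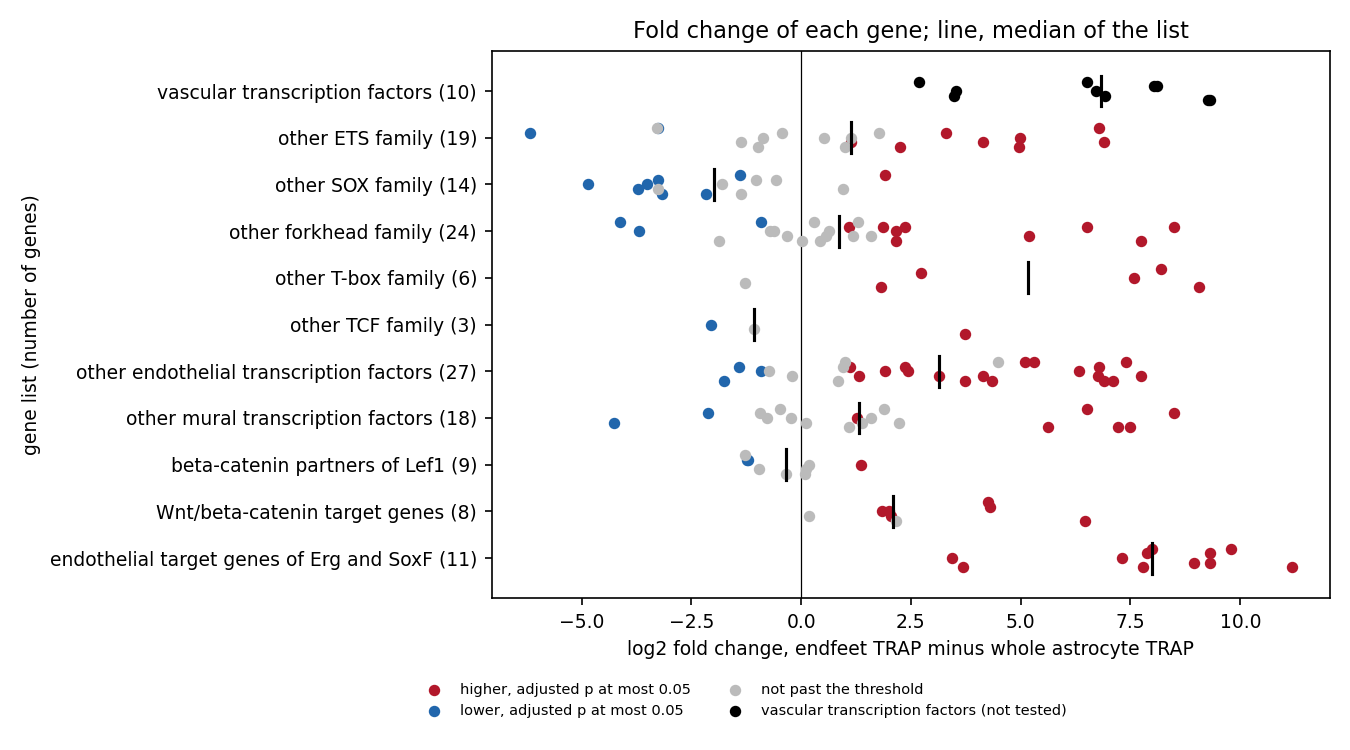
Fitted log2 fold change of endfeet TRAP over whole astrocyte TRAP for each tested gene of each list (rows, with the number of genes). Genes higher at an adjusted p of at most 0.05 are red, lower ones blue and those not past the threshold grey. The 10 transcription factors are black, with no call marked, since they were listed on this contrast (in the legend, not tested). Lines mark the median of each list, from -1.99 for the other SOX genes to 8.0 for endothelial targets of Erg and SoxF. Where no endfeet library had a count, the point stands at the bound that a floor of 3 counts over the group gives.

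Of the nearest protein-coding genes outside the 10, 11 were tested. Ets2, next to Erg at 115482 bases, had 122 ± 69.0 CPM in endfeet TRAP (SD, n = 6) and 28.6 ± 6.10 CPM in whole astrocyte TRAP (SD, n = 3), a log2 ratio of 2.24 (SE 0.527, edgeR adjusted p = 0.0052), and Kcnj15, on the other side of Erg, had 4.40 ± 8.10 against 0.0169 ± 0.0149 CPM (edgeR adjusted p = 0.028). The call of Kcnj15 was lost without whole astrocyte library 1, 2 or 3 (edgeR adjusted p = 0.098 to 0.12). Kcnj15 passed the filter on low counts only through endfeet TRAP, so nothing is read from its adjusted p. Mrpl15 next to Sox17 was lower (20.6 ± 8.32 against 99.1 ± 3.85 CPM), as was Hadh, 9063 bases from Lef1 (53.0 ± 17.1 against 195 ± 9.68 CPM). Gmds, 7103 bases from Foxc1 at the edge of the forkhead cluster, had 5.94 ± 5.48 against 10.8 ± 1.38 CPM and did not pass (log2 ratio -0.81, SE 0.827, edgeR adjusted p = 0.48). Bcas3 next to Tbx2 and Med13l next to Tbx3 had log2 ratios of -0.08 (SE 0.614) and 0.02 (SE 0.361), and neither passed. Tcea2 next to Sox18 and Rpl34 next to Lef1 had values of -1.50 (SE 1.20) and -1.16 (SE 1.07) and did not pass either, although Tcea2 passed in limma voom (-2.80, adjusted p = 0.012). Cep162 and Nt5e, the neighbours of Tbx18 at 447264 and 595937 bases, were higher (log2 ratios 1.52, SE 0.540, and 2.88, SE 0.976, edgeR adjusted p = 0.044 and 0.036). Neither passed without whole astrocyte library 1, 2 or 3 (edgeR adjusted p = 0.13 to 0.14 for Cep162 and 0.091 to 0.15 for Nt5e), nor did Cep162 without endfeet library 2, 3, 4 or 5 (0.07 to 0.081) and Nt5e without endfeet library 2 or 5 (0.069 to 0.074). With endfeet libraries 4 to 6 only, the log2 ratio of Cep162 was 0.85.

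The counts of single transcripts gave a further view of Sox17, Erg and Lef1, since a read was counted on each transcript of a gene that it overlapped. Lef1-201 was the transcript with the most counts, and the protein-coding Lef1-203 had 54.7% to 95.9% of its count in endfeet TRAP and 63.7% to 71.7% in whole astrocyte TRAP. The retained-intron transcript Lef1-205 had 31.0%, 35.8%, 14.3%, 6.49%, 8.25% and 5.15% of the Lef1-201 count in endfeet libraries 1 to 6, against 7.71%, 8.68% and 10.4% in whole astrocyte libraries 1 to 3. Endfeet libraries 1 to 3 were thus above all whole astrocyte libraries, and libraries 4 and 6 below them, though library 6 had only 5 counts of Lef1-205. The other retained-intron transcript, Lef1-206, had 23.2%, 20.9%, 11.2%, 4.23%, 7.48% and 17.5%. Sox17-202 had 1.65% to 19.5% of the count of Sox17-201 in endfeet TRAP. The share was lowest in library 1, where Sox17-202 had 2 counts, under the floor of 3. Erg-205 had 62.1% to 96.4% of the count of Erg-203. These shares were not tested.

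Over all 9 libraries, the genes whose log2(CPM + 1) was most like that of a transcription factor (Pearson correlation, a description in which the difference between the groups enters) were Actn4 (0.998) and Rassf3 (0.997) for Erg, Ppfibp1 (0.997) and Tram2 (0.996) for Sox17, Dnajc16 and Sema3g (0.996 each) for Sox18, Gkn3 (0.995) and Phtf2 (0.993) for Foxq1, Dnah5 (0.996) and Herc2 (0.994) for Foxf2, and Sp100 (0.998) and Golm1 (0.993) for Foxc1. For the T-box genes they were Ero1lb (0.995) and Rps20 (0.989) for Tbx2, Afap1l1 (0.998) and Fyco1 (0.997) for Tbx3, and Clic4 (0.996) and Edn1 (0.992) for Tbx18. For Lef1 they were Dnah10 (0.995) and C3 (0.988). Over the 6 endfeet libraries alone, the leading gene was another one for each of the 10 factors: Srf (0.996) for Erg, Mif4gd (0.999) for Sox17, Klhl26 (0.990) for Sox18, Six5 (0.995) for Foxf2, 1500011B03Rik (0.997) for Foxq1, Rnaseh2b (0.995) for Foxc1, Smim24 (0.993) for Tbx2, St6galnac3 (0.991) for Tbx3, Bcl6 (0.996) for Tbx18 and Bace2 (0.996) for Lef1. The second genes there were Elavl2 (0.994), Tmem183a (0.997), Dnajc16 (0.988), Cmss1 (0.994), Rbbp4 (0.997), Trub1 (0.992), Ero1lb (0.987), Fam208b (0.981), Gcc1 (0.995) and Lamtor5 (0.994), in the same order. Dnajc16 for Sox18 and Ero1lb for Tbx2 were among the 2 most alike over both sets of libraries. All these values share library size and the few libraries they rest on. Each was the highest among all genes tested, and over so few libraries values this high can arise by chance, so nothing is read from them.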

How the data were processed

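Polysomal mRNA was purified by TRAP from 3 whole astrocyte and 6 endfeet preparations, amplified (NuGEN Ovation) and sequenced. The authors used the Eoulsan pipeline to filter reads, aligned them to mm10 with Bowtie, dropped multiply aligned reads and tallied overlaps with Ensembl annotation by HTSeq-count (HTSeq 0.5.3 in the submitters' processing notes). The files hold the deposited counts of each Ensembl transcript without normalization, 1 library per file.

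Of 75466 transcripts, 73164 were matched to GENCODE M21 of the same build, in 22092 genes, and 2302 were left out. A gene's value was the count of the transcript whose CPM summed over libraries was largest. CPM used gene totals, and RPKM the exonic length of that transcript. Groups were compared with edgeR 4.0.16 (TMM, filterByExpr, quasi-likelihood test, Benjamini-Hochberg adjustment over all 14427 genes tested, threshold 0.05) in R 4.3.3. SEs are the size of each log2 fold change over the root of its F statistic. Alternatives were DESeq2 1.42.0 (the tool of the study), limma voom 3.58.1 with group weights, DESeq2 size factors, 2 other filters, counts summed over transcripts, the run of file numbers as covariate or its second run only, the 10 most counted genes left out, the replicate number as a block and each library left out. The tests were also run on simulated counts, but no outcome is given here, so nothing is read from that run. The common dispersion in edgeR, the spread between libraries beyond counting error, was 0.725 for the endfeet libraries. For the whole astrocyte libraries it was 0.0141. How the tests behave under so unequal a spread is not shown here. Tables were handled in Python 3.11.15.

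The genes and the lists were chosen with earlier results of these data known. Named are the 10 genes, from each list and direction the 3 largest log2 fold changes among calls without overlap between groups, the other TCF genes, Sox7, Fli1, Foxl2, Foxs1, Tbx15, Tbx4, Tbx5, Ctnnb1 and Axin2, the nearest protein-coding genes with a test, and the 2 most correlated genes. Some genes that this rule names are not reported here. Marker lists served as summed CPM and as counts of genes without overlap between groups. Neuron and oligodendrocyte markers summed to 4363 to 4936 and 902 to 934 CPM in whole astrocyte TRAP and to 1031 to 2088 and 404 to 639 CPM in endfeet TRAP.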

Additional observations from a re-analysis of the deposited data

Results flagged for a closer look

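Of 23 values tested for a library far from the others of its group, 1 stood out, where chance gives about 1 in 20. Tbx2 in endfeet TRAP had 44.4 CPM in library 6, with the next library at 14.4 CPM and the lowest at 5.29 CPM, so that the gap took 0.766 of the whole range (critical value 0.625 for 6 libraries). Library 6 had the fewest counts, 2319495, and its Tbx2 value rests on 103 counts.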

How the results depend on the processing

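All 10 transcription factors were called higher in endfeet TRAP in each of the alternatives, apart from the filter of at least 10 counts in every library. That filter left 6 of them, all higher. Of all genes tested, 2991 of 14427 were called higher in the main fit. The count was 3928 of 14427 in limma voom and 1874 of 14849 without whole astrocyte library 2. The genes were listed on this contrast in these same libraries, so nothing is read from these counts. The alternatives with a shift of the median over all genes above 0.1 in log2 were limma voom with group weights (-0.39), the replicate block (-0.31) and endfeet libraries 4 to 6 only (-0.25), besides endfeet library 4 (-0.15) or 5 (-0.13) left out. Of all calls, 59.9% were higher in endfeet TRAP, against 46.7% in limma voom and 49.8% with endfeet libraries 4 to 6 only. The replicate numbers gave no sign of pairing. Correlations of same-numbered deviations were -0.0359, 0.0172 and 0.0382, within the -0.0549 to 0.0471 of different numbers, though so few values cannot exclude pairing. With the replicate block, Sox17 had a log2 fold change of 8.46, Foxq1 7.35 and Tbx2 7.31, and 1 beta-catenin partner was lower. Limma voom gave 6 lower ETS genes, 5 lower forkhead genes, 2 lower TCF genes and 4 lower beta-catenin partners, and DESeq2 1 lower mural factor. With at least 10 counts in every library, so with fewer genes tested, 4 SOX genes, 1 forkhead gene and 1 mural factor were lower, and 1 T-box gene, 2 mural factors and 5 endothelial targets higher. With the run of file numbers as a covariate 0 SOX genes were higher and 1 forkhead gene and 1 endothelial factor lower, with endfeet libraries 4 to 6 only 0 SOX genes and 3 T-box genes were higher, and with counts summed over transcripts 1 beta-catenin partner was lower. Over libraries left out in turn, higher ETS genes ranged from 5 to 9, higher SOX genes from 0 to 2, lower forkhead genes from 1 to 3, higher T-box genes from 3 to 5, lower mural factors from 1 to 3 and lower beta-catenin partners from 0 to 2. With counts summed over transcripts and the union of exons as length, endfeet TRAP means became 62.0 RPKM for Erg, 24.5 for Sox18, 8.63 for Foxc1 and 5.60 for Tbx18. These shifts follow from counting a read once for each transcript it overlaps, also in the library total. Where no construction of the alternative is named, the cause was not tested. For single named genes outside the 10, 71 calls were lost under an alternative, 3 were gained and none reversed. Endfeet library 6 had the fewest counts, and its values carry the largest counting error.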
